A study of Mus musculus with 9 samples.

Results

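The transcriptome described here is that of the atrioventricular (AV) node, microdissected from C57BL/6J mice whose genotype is labelled Control. It was read from 3 bulk RNA libraries, called control libraries 1, 2 and 3. A gene was taken as a member if it reached 1 CPM (reads of a gene per 1000000 in the library's denominator, as deposited) in every one of them, and 11767 of 34198 gene symbols (34.4%) did. The series also holds libraries of Cx3cr1 Cx43-/- nodes and of macrophage-depleted Cd11bDTR nodes, which are not used here and with which nothing is compared. They are stated to be biological replicates, and the labels give no age, no sex and no word on pooling of nodes.

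The AV node is the small piece of specialised myocardium that passes the impulse from atria to ventricles after a delay. Its myocytes conduct slowly because they rely more on calcium current than on fast sodium current and are joined by low-conductance gap junctions, and they can pace the heart through the hyperpolarization-activated current. The node lies in fibrous and fatty tissue at the base of the atrial septum, next to the valve ring and the crest of the ventricular septum, and it holds vessels, nerve fibres and resident macrophages. In bulk RNA of such a piece, fewer cells of a type and less RNA per cell cannot be told apart.

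The listed genes took 48.7%, 42.8% and 45.3% of the CPM denominator in libraries 1, 2 and 3, and the rest was in reads outside the listed symbols. Low CPM values fell on steps of 0.0160, 0.0186 and 0.0174 CPM, the value of 1 read, which puts the denominators at about 62500000, 53800000 and 57300000 reads. A gene at the threshold of 1 CPM therefore rested on about 54 to 62 reads. Library 2 stood apart from the others. It held 15130 symbols above 0, against 18748 and 18005. Over the members, Pearson's r of log2(CPM + 0.5), across genes, was 0.99 between libraries 1 and 3 and 0.96 and 0.97 between each of them and library 2. Of genes at 1 CPM or more in both other libraries, 516 were below that level in library 2 and 83 stood at 0, while 0 genes stood at 0 in library 1 or in library 3 alone by the same count. Library 2 had 846 symbols with 1 to 10 reads and 1068 with 11 to 30, whereas library 1 had 3253 and 1723 and library 3 had 2823 and 1712. The values of each library are therefore given. Counts of members in the lists below need all 3 libraries, and the closing section gives counts without library 2.

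**Figure D1:**
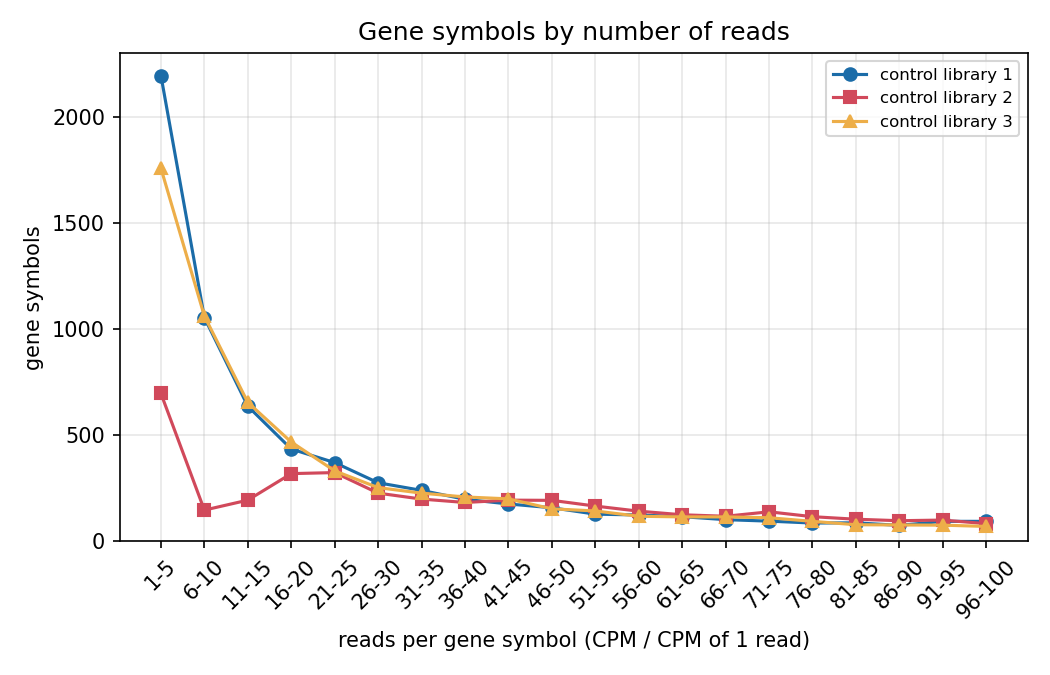
Number of gene symbols (vertical axis) by number of reads per symbol, in steps of 5 reads (horizontal axis), for the 3 control libraries. Libraries 1 and 3 fall steadily from the lowest class, and library 2 drops from 698 symbols at 1 to 5 reads to 148 at 6 to 10 and rises again to 325 at 21 to 25.

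The level of a gene is compared with that of another gene only after division by exon length, in CPM per kb of exon. A percentile is the gene's place among the 11645 members that have such a length. Of the members, 11416 are protein coding. Members were classed by mean CPM after scaling to a common total. This mean was below 5 for 2254 members, between 5 and 20 for 4947 and between 20 and 100 for 3877. It was between 100 and 1000 for 657 and above 1000 for 32. The 10 highest genes took 13.9% ± 0.437 (SD, n = 3) of the summed level per kb, and the 100 highest took 37.5% ± 1.95. The coefficient of variation between libraries was taken after the same scaling to a common total. Its median was 24.4% below 5 CPM, 10.3% between 20 and 100 CPM, 8.74% between 100 and 1000 CPM and 11.9% above 1000 CPM.

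Genes of contraction, oxygen storage and the respiratory chain headed the ranking. Myoglobin (Mb), the oxygen store of cardiac muscle, stood first with 3703 ± 420 CPM per kb (SD, n = 3), followed by Myl7, the atrial regulatory myosin light chain, with 3302 ± 890 and the cardiac actin Actc1 with 2909 ± 227. The SD of Myl7 overlaps those of both others, and Myl7 was above Mb in library 1 and below it in libraries 2 and 3. Cardiac troponin C (Tnnc1), troponin I (Tnni3), the heavy chain Myh6, the calcium pump Atp2a2 (SERCA2) and the ventricular light chains Myl2 and Myl3 were among the next, between 1096 and 1581 CPM per kb. The mitochondrial ADP/ATP carrier Slc25a4 and the oxidase subunits Cox6a2, Cox8b, Cox4i1 and Cox6b1 also stood among the highest 20. Outside muscle and mitochondrial genes, the highest 20 held Gsn, the actin-severing protein gelsolin that is abundant in cardiac fibroblasts, with 1658 ± 195 CPM per kb, and Mgp, the matrix Gla protein that inhibits calcification, with 1247 ± 312. By CPM without length, Myh6 was first with 10444, 7338 and 7748 CPM in libraries 1, 2 and 3, and Atp2a2 second with 8842, 6039 and 7278.

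**Figure D2:**
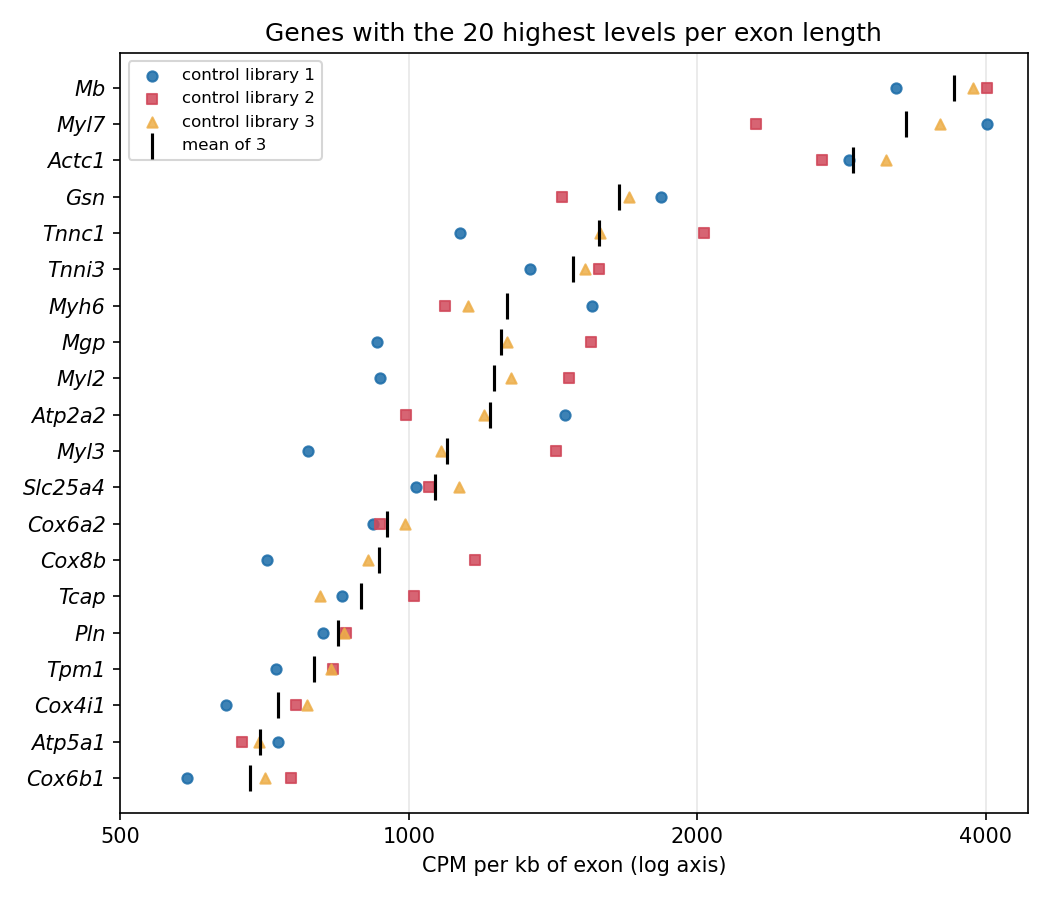
Level in CPM per kb of exon (horizontal log axis) of the 20 genes with the highest mean level, with a marker for each control library and a bar for the mean of 3. Mb, Myl7 and Actc1 lead, Tnnt2 lies just outside with 662, and Myl2, Myl3 and Tnnc1 are highest in library 2 where Myl7 and Atp2a2 are lowest.

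Most genes used as marks of nodal and conduction tissue were present, at moderate levels. Of 34 such genes, 31 were members, and their median percentile was 64.8. Those that fell short were Isl1, a transcription factor of pacemaker precursors, with 0.18, 0 and 0.21 CPM, the potassium channel partner Kcnip4 with 0.24, 0 and 0.38 CPM, and Pcp4, a calmodulin-binding protein, which missed the threshold in library 1 (0.94 CPM). In the 3 libraries Tbx3, the T-box repressor that keeps chamber genes off in the node, had 37.2, 37.9 and 30.1 CPM. Its relative Tbx2 had 18.4, 6.64 and 18.5 CPM, low in library 2. Shox2, a pacemaker transcription factor, had 10.1, 7.21 and 7.55 CPM. Per exon length Tbx3 lay below Tbx5, an activator of chamber and conduction genes, with a ratio of 0.333 ± 0.152, and below Nkx2-5, the general cardiac homeobox factor, with a ratio of 0.206 ± 0.0401 (SD, n = 3), which was 0.340 per kb of coding sequence. The highest of the list was Igfbp5, an IGF-binding protein, with 51.3 ± 11.8 CPM per kb. Contactin 2 (Cntn2), an adhesion molecule that marks conduction myocytes, had 137, 174 and 139 CPM and stood at percentile 89.1.

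The pacemaker channel genes Hcn4 and Hcn2 stood at percentiles 48.6 and 50.2 per kb of exon. The median percentile of the HCN list was 48.6 per kb of exon but 23.8 per kb of coding sequence and 36.8 by CPM without length. Hcn4, the main pacemaker channel of nodal cells, had 18.9, 15.5 and 19.3 CPM, and Hcn2 had 11.1, 7.83 and 10.5 CPM. Per exon length the ratio of Hcn4 to Hcn2 was 0.957 ± 0.0715 and their ranges overlapped. Per kb of coding sequence Hcn4 was the higher in every library, with a mean ratio of 1.32 and ranges apart. Hcn3 stayed below 1 CPM (0.06, 0 and 0.37). The T-type calcium channels stood high for channels: Cacna1g had 106, 114 and 98.8 CPM and Cacna1h had 168, 103 and 111 CPM. Their per-kb ranges overlapped, with a ratio of 0.848 ± 0.231. The L-type pore genes were lower per kb, and Cacna1c, the chamber form, exceeded Cacna1d, the form that opens at the more negative voltages of pacemaker cells, by 2.20 ± 0.179 times per kb of exon and 3.55 times per kb of coding sequence. The auxiliary subunit Cacna2d2 had 113, 79.7 and 80.4 CPM and exceeded Cacna2d1, the usual ventricular subunit, by 2.33 ± 0.351 times per kb of exon and 1.44 times per kb of coding sequence. Of 21 voltage-gated calcium channel genes, 13 were members.

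**Figure D3:**
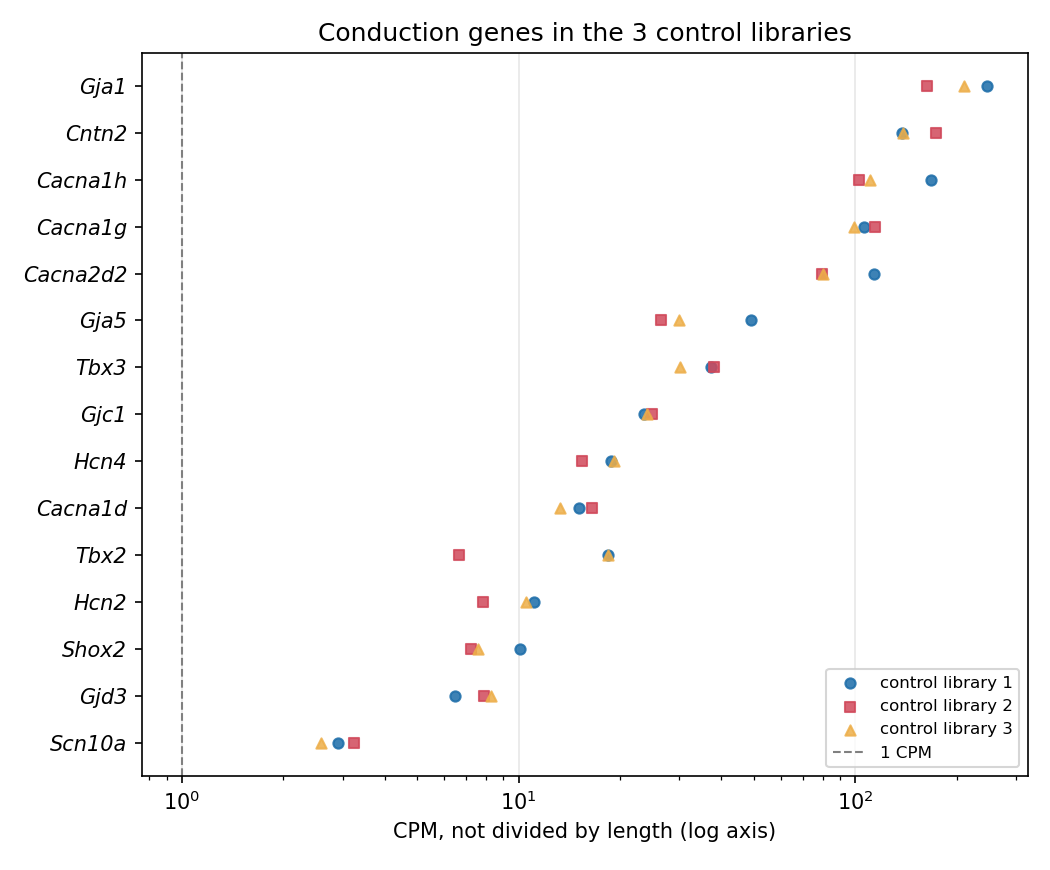
CPM without length correction (horizontal log axis) of 15 conduction genes, with a marker for each control library and the threshold of 1 CPM as a dashed line. All 15 lie right of the line in every library, and Tbx2 shows a library 2 value far below the others.

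Among the connexins, the proteins of gap junctions, Gja1 (connexin 43) was the highest, with 246, 163 and 211 CPM. It was higher per kb than Gja5 (connexin 40), the fast-conducting atrial and His bundle form, by 3.40 ± 0.562 times, and than Gjc1 (connexin 45), the nodal form, by 4.19 ± 0.954 times. Per kb of coding sequence these ratios were 5.95 and 8.91. Gja5 had 48.9, 26.5 and 29.95 CPM, and Gjc1 had 23.6, 24.9 and 23.99 CPM. Gjd3 (the mouse low-conductance connexin of the node) had 6.46, 7.88 and 8.27 CPM. Its order with Gjc1 depends on the length used: Gjc1 stood at 0.542 ± 0.0640 times Gjd3 per kb of exon but at 2.27 times per kb of coding sequence. The endothelial Gja4, the lens connexin Gja3, Panx1 and Panx2 were members at 10.9 CPM or less in every library. The rest of the family, 15 of 23 genes, were not, and Gja10, Gjb1 and Gje1 stood at 0 in all 3 libraries. Gja1 is expressed by chamber myocytes and stromal cells as well, and these libraries do not tell which cells its reads came from.

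Of 19 genes of the sodium channel list, 11 were members. Scn10a, a sodium channel of sensory neurons, had 2.9, 3.24 and 2.58 CPM, and Scn4a, the skeletal muscle form, had 10.1, 7.05 and 4.31 CPM. Of 41 potassium channel genes, 29 were members. The highest per kb were Kcnk3 (TASK-1, a background channel) with 35.3 ± 11.4 CPM per kb, Kcnh2 (ERG, the rapid repolarizing current) with 28.8 ± 4.69 and Kcnj5 with 27.8 ± 4.61. Kcnj5 and Kcnj3 encode the channel opened by acetylcholine, and Kcnj3 had 160, 77.3 and 111 CPM. Their per-kb ranges overlapped. Kcnq1, the slow repolarizing channel, stood at 0.344 ± 0.0159 times Kcnh2. Kcnj2 and Kcnj12, the inward rectifiers of working myocytes, had overlapping ranges per kb of exon, but Kcnj2 was the higher in every library per kb of coding sequence, with a mean ratio of 2.16. They had 20.9, 15.2 and 23.6 CPM for Kcnj2 and 16.3, 6.47 and 14.7 CPM for Kcnj12.

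The genes through which nerves act on the node were present, 27 of 39 as members. Chrm2, the muscarinic receptor of the vagal response, had 120, 76.4 and 99.2 CPM and stood at percentile 89.2. It exceeded Adora1, the adenosine receptor that slows nodal conduction, by 6.03 ± 2.29 times per kb. The beta-receptor gene Adrb1 had 18.5, 13.3 and 15.3 CPM. Of the cardiac adenylyl cyclases, Adcy5 stood at 0.540 ± 0.0205 times Adcy6. The other muscarinic receptors were not members, and the highest of them, Chrm3, had 0.83, 0.35 and 0.28 CPM.

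Calcium cycling genes contained some of the highest levels of all, with 30 of 33 as members. Phospholamban (Pln), which restrains the pump SERCA2, had 2243, 2372 and 2359 CPM. Sarcolipin (Sln), its atrial counterpart, had 512, 228 and 422 CPM and stood at 0.351 ± 0.140 times Pln per kb. Ryr2, the cardiac calcium release channel, had 608, 413 and 499 CPM and exceeded Ryr3 by 53.2 ± 5.78 times per kb of exon and 79.9 times per kb of coding sequence. The calcium store protein Casq2 had 595, 430 and 555 CPM.

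Genes of working myocardium of both chambers were present beside the nodal genes. These libraries do not tell whether their reads came from nodal or from working myocytes. Of the general sarcomere list, 26 of 26 genes were members with a median percentile of 99.4, and their summed level was 42111, 40489 and 40887 CPM, so it differed by 1.04 times at most between libraries. Of the atrial list 19 of 20 genes were members (median percentile 92.4), and of the ventricular list 15 of 17 (median percentile 98.0). The alpha heavy chain Myh6 exceeded the beta chain Myh7 by 27.1 ± 7.87 times per kb. Both light chain pairs held atrial and ventricular forms together: Myl7 stood at 2.89 ± 1.37 times Myl2, and Myl4 at 0.540 ± 0.227 times Myl3. Both orders are lost per coding length, where the ranges overlap. Near-identical copies in these families, such as Myh6 with Myh7 and Actc1 with Acta1, may share reads.

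The atrial and ventricular lists moved in opposite directions between the 3 libraries. The summed atrial list had 12400, 6348 and 9829 CPM in libraries 1, 2 and 3, and the ventricular list had 12903, 16883 and 15425 CPM. The largest term of the ventricular sum was Mb, a gene of cardiac muscle at large, with 4810, 5979 and 5783 CPM. The ventricular list also holds Pln, with 2243, 2372 and 2359 CPM. Nppa, the atrial natriuretic peptide, had 966, 195 and 531 CPM. Myl7 had 2369, 1359 and 2116 CPM, and Pam, the peptide-amidating enzyme that is the main membrane protein of atrial granules, had 3211, 1225 and 2142 CPM. Bmp10, an atrial growth factor, had 10 CPM in library 1 and was listed at 0 in libraries 2 and 3. In the ventricular list Myl2 had 1821, 2866 and 2492 CPM, and Myl3 had 1604, 2910 and 2207 CPM. Of the 19 atrial members, 17 were highest in library 1 and lowest in library 2, against 45.5% of all members. Of the 15 ventricular members, 8 were highest in library 2 and lowest in library 1, against 9.40%. The column totals of the listed genes differ in the same direction as the first pattern. After scaling to a common total the counts were 14 of 19 against 30.5% and 11 of 15 against 17.2%. The median log2 ratio of library 1 to library 2 was 1.05 over the atrial members and -0.31 over the ventricular ones, beside 0.28 over all members. This pattern was noticed after the values were seen. Lists of other cells shared the direction of the atrial list. Of the endocardial members 10 of 11 were highest in library 1 and lowest in library 2, before and after scaling, and of the blood endothelial ones 17 of 24 before and 15 after. The median log2 ratio of library 1 to library 2 was 0.87 over the endocardial members, 1.15 over those of MHC class II and dendritic cells and 1.44 over those of mast cells. Of the 26 sarcomere members, 7 were highest in library 2 and lowest in library 1, against 9.40%, and 9 the reverse, against 45.5%. After scaling these counts were 13 against 17.2% and 6 against 30.5%, and the sarcomere sum differed by 1.09 times at most. The rows of ribosomal names given further on were highest in library 2, and their part in the pattern was not tested. Library 3 lay between the others in both sums and in Nppa, Myl7, Myl2 and Myl3. The nodal list, by its sum, had 1599, 1262 and 1314 CPM.

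**Figure D4:**
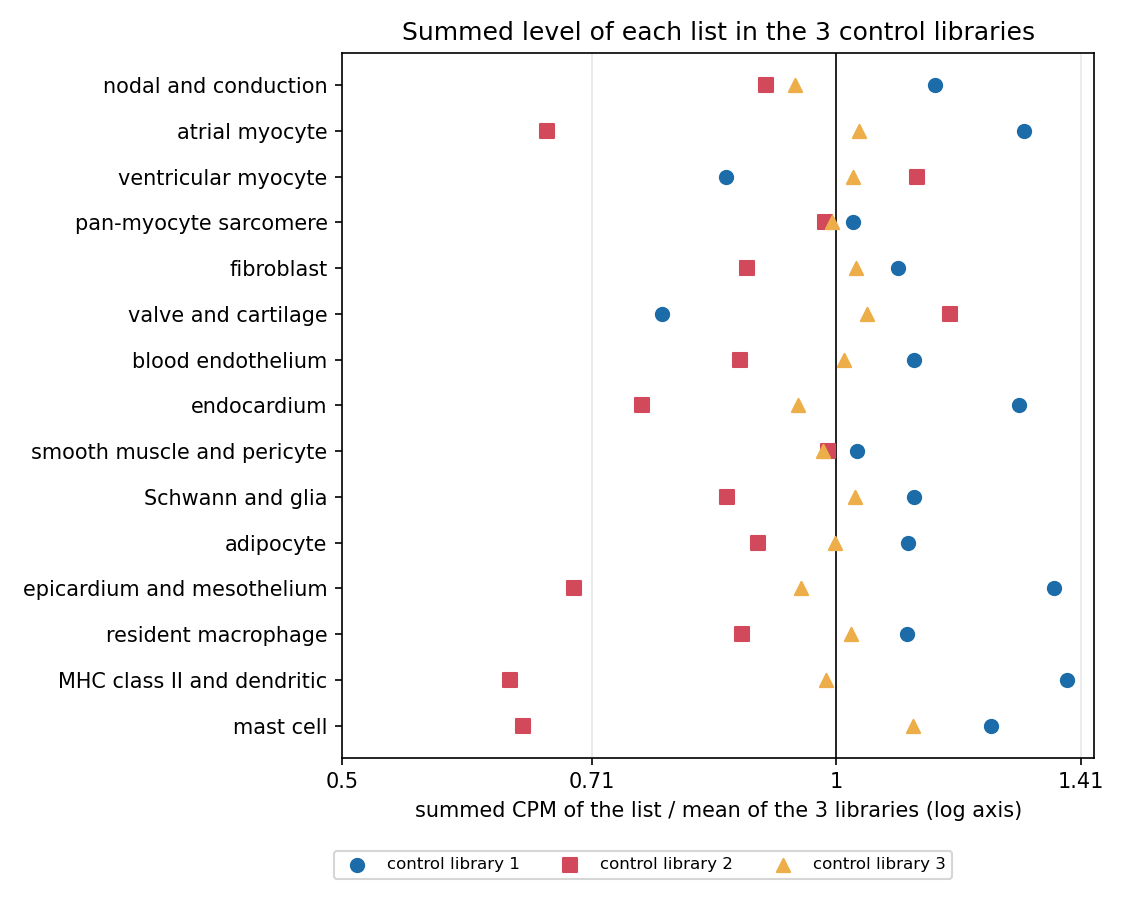
Summed CPM of each list divided by its mean over the 3 control libraries (horizontal log axis), with a marker for each library. The atrial list is highest in library 1, the ventricular list and the valve and cartilage list are highest in library 2, and the sarcomere list differs by 1.04 times at most.

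For 3 genes that carry this contrast, the 250 bases before the RefSeq start were read in build GRCm38.p6, a later build than the mm9 named by the submitters, to show what the upstream sequences of Nppa, Myl7 and Myl3 hold. 4 short motifs were searched on both strands, and matches stand in capitals. The TATA box was searched as TATAAA and the site of GATA factors as AGATAA. Other forms of the GATA site, such as TGATAA, were not searched and stay in lower case. The site of T-box factors was searched as GGTGTGA, and a site like that of MEF2 factors as TAAAAATA. No match overlapped another. Nppa lies on the plus strand at chr4:148000472-148000721, Myl7 on the minus strand at chr11:5898783-5899032 and Myl3 on the plus strand at chr9:110763428-110763677.
Nppa: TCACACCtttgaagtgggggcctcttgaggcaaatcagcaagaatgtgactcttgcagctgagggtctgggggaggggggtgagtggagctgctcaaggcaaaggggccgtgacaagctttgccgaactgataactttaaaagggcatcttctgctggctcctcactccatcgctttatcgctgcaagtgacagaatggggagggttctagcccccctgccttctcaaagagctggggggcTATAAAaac
Myl7: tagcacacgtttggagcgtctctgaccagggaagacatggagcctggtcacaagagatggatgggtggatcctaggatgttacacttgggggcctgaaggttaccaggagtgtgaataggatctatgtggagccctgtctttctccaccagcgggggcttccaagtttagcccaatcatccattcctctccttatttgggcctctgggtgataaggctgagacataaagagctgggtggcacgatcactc
Myl3: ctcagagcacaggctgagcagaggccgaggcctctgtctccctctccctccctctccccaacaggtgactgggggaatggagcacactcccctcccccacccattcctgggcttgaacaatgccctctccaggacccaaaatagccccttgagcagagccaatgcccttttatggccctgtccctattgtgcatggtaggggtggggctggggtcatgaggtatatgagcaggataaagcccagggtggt
The Nppa window held the T-box letters, read on the opposite strand, at its start and the TATA letters near its end. The other 2 windows held 0 matches to the letters searched. Of all 32851 windows in the table, 12.4% held the TATA letters, 9.99% the GATA letters, 3.33% the T-box letters and 2.45% the MEF2-like letters. Over the 10891 windows of members the shares were lower, at 6.55%, 5.82%, 2.74% and 1.37% in the same order. A gene can have several windows. Of 15 windows of atrial members, 2 held the TATA letters, 2 the T-box letters and 0 the GATA or MEF2-like letters. Of 21 windows of ventricular members, 5 held the TATA letters, 3 the GATA letters and 0 the T-box or MEF2-like letters. Of 27 windows of sarcomere members, 5 held the GATA letters, 2 the T-box letters, 2 the MEF2-like letters and 0 the TATA letters. Of 23 windows of nodal members, 3 held the TATA letters and 0 the GATA, T-box or MEF2-like letters. A match is a run of letters and no evidence of binding.

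The fibroblast list ranked beside the muscle lists, and the collagen and valve lists ranked lower. Of 24 fibroblast genes, 23 were members with a median percentile of 94.7, and their sum was 11345, 9188 and 10695 CPM. Gsn alone gave 5782, 4566 and 5354 CPM of that sum. Decorin (Dcn), a collagen-binding proteoglycan, had 1219, 1106 and 1250 CPM, and the collagen genes Col3a1 and Col1a1 had 613, 430 and 519 CPM and 332, 280 and 318 CPM. Of 44 collagen chains, 33 were members, with a median percentile of 53.4 per kb of exon and 34.3 per kb of coding sequence. The valve and cartilage list, with 16 of 21 members and a median percentile of 64.3, spread the other way: its sum was 849, 1272 and 1133 CPM. Its median percentile was 34.9 by CPM without length, 54.7 without library 2 and 90.6 among genes at 5 CPM. Cytl1, a secreted protein of cartilage cells, had 197, 245 and 226 CPM. The cartilage matrix genes Comp, Chad and Fmod had 203, 355 and 279 CPM, 89.96, 178 and 135 CPM, and 125, 207 and 177 CPM, each lowest in library 1 and highest in library 2. The collagen of hyaline cartilage, Col2a1, had 2.16, 0 and 1.03 CPM, and Matn1 stood at 0 in all 3 libraries. Of the adipocyte list 17 of 20 were members, led by lipoprotein lipase (Lpl) with 1499, 1185 and 1334 CPM, a gene that cardiac myocytes also express, and the brown fat uncoupler Ucp1 had 0, 0.35 and 0 CPM.

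Vessel genes were complete or nearly so. All 24 measured genes of blood endothelium were members (median percentile 85.5), as were all 21 of smooth muscle and pericytes (78.8), and of the endocardial list 11 of 13. The fatty acid receptor Cd36 had 694, 609 and 655 CPM, and VE-cadherin (Cdh5) had 110, 65.4 and 90.1 CPM. The smooth muscle actin Acta2 had 159, 140 and 136 CPM and the pericyte gene Rgs5 had 260, 200 and 252 CPM. Of the lymphatic list 8 of 10 were members, with the lymphatic regulator Prox1 at 42.6, 36.5 and 38.1 CPM, a gene that heart muscle can also express. Of the epicardial and mesothelial list 7 of 17 were members, and the mesothelial genes Upk3b and Msln had 10.7, 0.33 and 1.59 CPM and 12.8, 0.93 and 2.67 CPM, high in library 1.

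Of the Schwann and glia list 16 of 24 were members, and 4 more missed the threshold in library 2 alone. Peripheral myelin protein 22 (Pmp22), which many other cells make, had 88.0, 82.0 and 95.7 CPM, and the glial calcium-binding protein S100b had 9.93, 7.42 and 10.95 CPM. Of 28 neuron genes 8 (28.6%) were members, a share below the 34.4% of all symbols. Dbh, which makes noradrenaline, had 10.8, 12.7 and 8.06 CPM, and Ddc, the enzyme before it, had 16.3, 15.4 and 19.2 CPM. Tyrosine hydroxylase (Th), which starts the same pathway, had 0.27, 0 and 0 CPM. The cholinergic genes Chat (0, 0 and 0.12 CPM) and Slc5a7 (0.3, 0 and 0 CPM), and the neurofilament Nefl (0.13, 0 and 0.19 CPM) were at or near 0. Neuronal RNA lies mostly in cell bodies, and axons hold little of it. Whether these pieces held neuronal cell bodies was not tested.

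Of the immune lists, that of resident macrophages was complete. All 30 of the listed macrophage genes were members, with a median percentile of 74.1 and a sum of 1550, 1230 and 1432 CPM. Their median percentile was 71.4 per kb of coding sequence and 55.3 by CPM without length. Lysozyme (Lyz2) had 263, 216 and 255 CPM, and the complement genes C1qa and C1qb had 55.6, 43.1 and 61.3 CPM and 62.8, 42.1 and 55.1 CPM. The list also holds Sepp1, a selenium carrier with 372, 398 and 413 CPM, which other heart cells also make. Cd163, the haemoglobin scavenger receptor of tissue macrophages, had 17.6, 11.2 and 10.6 CPM and exceeded Ccr2, the receptor of recruited monocytes, by 3.34, 8.43 and 2.96 times per kb of exon, an order that is lost per coding length, where the ranges overlap. Ccr2 itself had 6.53, 1.65 and 4.45 CPM, low in library 2. Of the monocyte and neutrophil list 5 of 21 were members, and the granule genes S100a8 and S100a9 stood at 0.13 CPM or less in every library. The list of MHC class II and dendritic cell genes had 9 of 18 members and a sum of 390, 179 and 279 CPM, with the invariant chain Cd74 at 159, 76.0 and 118 CPM. Of the T and NK lymphocyte list 1 of 24 was a member, and the T cell receptor subunit Cd3e had 0.32, 0 and 0.23 CPM. Mast cell genes were low and present, 7 of 15 as members, with the protease Mcpt4 at 8.45, 5.22 and 8.25 CPM.

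**Figure D5:**
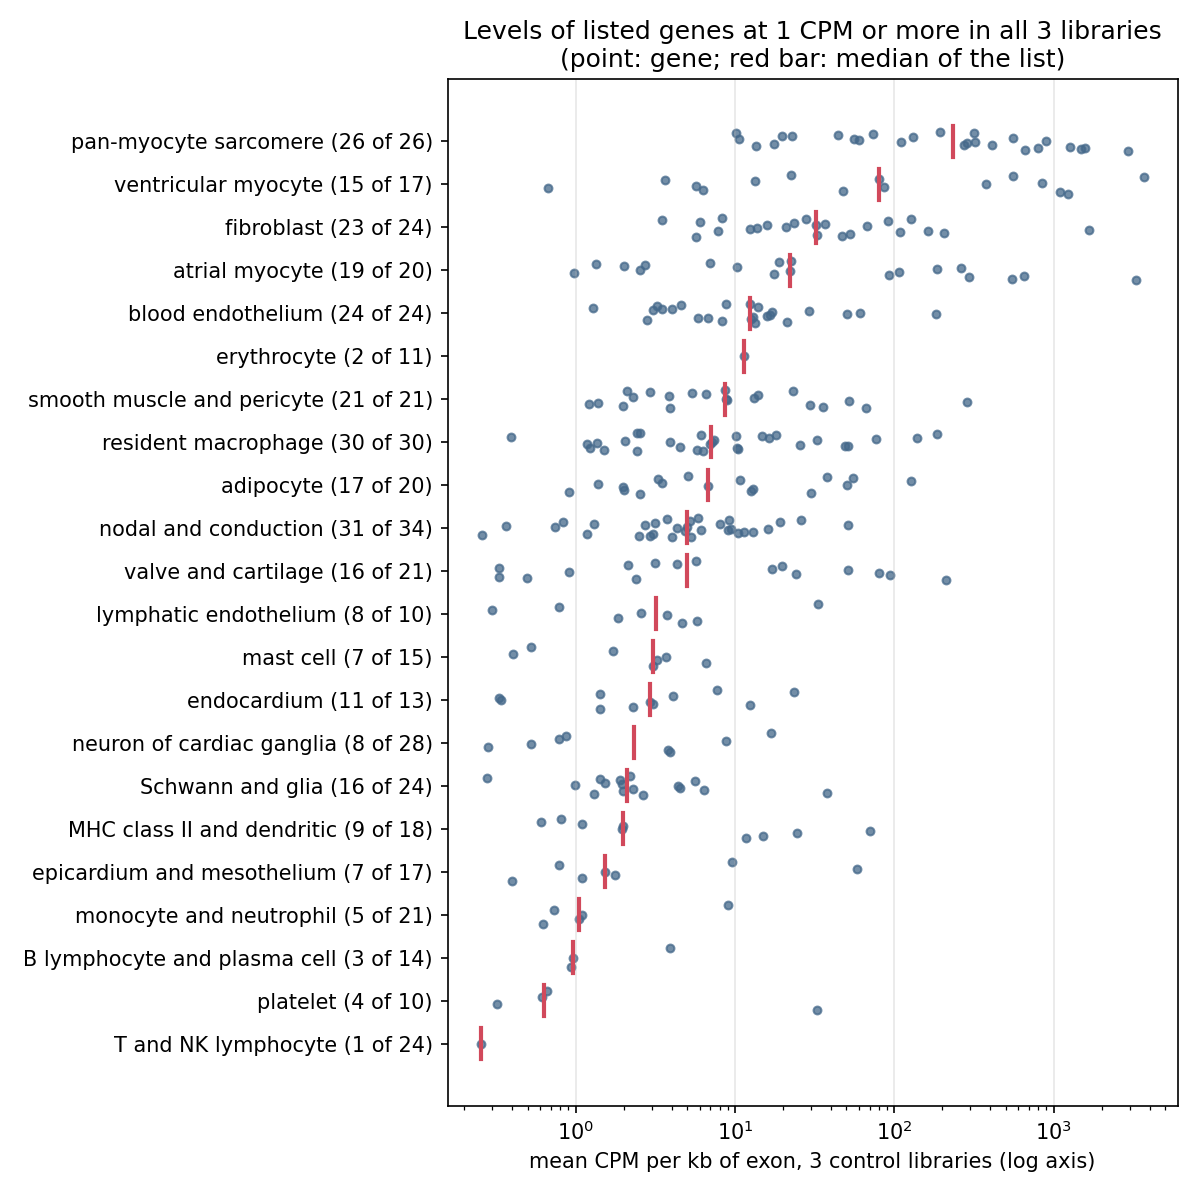
Mean level in CPM per kb of exon (horizontal log axis) of the members of each content list, with a point per gene, a red bar for the median and the number of members of those in the table. Muscle and fibroblast lists lie highest and lymphocyte and platelet lists lowest, and the 31 nodal genes lie between 0.260 and 51.3.

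Neighbouring and foreign tissue was searched with 6 lists, of which 14 of 91 different genes were members, against 294 of 433 for the content lists. Albumin (Alb), the lung surfactant gene Sftpc, keratin Krt5 and the muscle determination factor Myod1 stood at 0 in all 3 libraries. The skeletal list had 6 of 21 members, among them the skeletal actin Acta1 with 197, 374 and 257 CPM and Ckm, the muscle creatine kinase that the heart also uses, with 440, 394 and 429 CPM, while the fast skeletal heavy chains Myh1, Myh2 and Myh4 stayed at 0.31 CPM or less. The list of central neurons gave Slc17a7, the vesicular glutamate transporter VGLUT1, with 89.0, 29.1 and 50.0 CPM. The other vesicular transporter genes of that list, Slc17a6 and Slc32a1, stayed at 0.48 CPM or less. Of the erythrocyte list 2 of 11 genes were members, and its sum was 67.2, 94.6 and 79.6 CPM. Most of it was Tfrc, the transferrin receptor that many cell types make, with 62.2, 77.3 and 72.95 CPM. The globin genes Hba-a1 and Hbb-b1 had 0.56, 2.68 and 0.49 CPM and 2.91, 9.06 and 4.2 CPM, and near-identical globin copies may share reads.

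Energy genes ranked high. All 58 nuclear-encoded respiratory chain genes were members with a median percentile of 99.0, and 53 of them lay above percentile 90. Their sum was 20309, 21706 and 21564 CPM. Of them 33 were highest in library 2 and lowest in library 1, against the 9.40% given above, as with the ventricular list. All 38 genes of fatty acid and glucose use were members too, with the mitochondrial creatine kinase Ckmt2 at 744, 900 and 834 CPM. All 20 intercalated disc genes were members, led by alpha- and beta-catenin (Ctnna1 and Ctnnb1) at 58.9 and 49.4 CPM per kb. Of 27 immediate early and heat shock genes, which can rise when tissue is handled, 24 were members, with Jun at 66.7, 57.3 and 57.04 CPM and Fosb at 1.49, 0.78 and 0.82 CPM.

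Between the highest and the lowest library, 906 members (7.70%) differed by more than 2-fold on log2(CPM + 0.5). Of the atrial members 12 of 19 did, of the nodal 3 of 31, of the ventricular 1 of 15, of the macrophage 2 of 30, and of the sarcomere and fibroblast lists 0 of 26 and 0 of 23. The count rests on library 2: between libraries 1 and 3, 53 of the same members differed so far and 0 of the atrial, nodal or macrophage ones. Between libraries 2 and 3 it was 419, with 2 of the atrial members, and between libraries 1 and 2 it was 759.

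Of the 15 members with the widest spread at a mean of 10 CPM or more, 9 were rows of ribosomal, microRNA or other noncoding names and 1 was Lars2, all 10 highest in library 2. The other 5, Nppa, Angpt1, Larp4b, Scd4 and Igdcc4, were highest in library 1 and lowest in library 2, with 79.5, 21.7 and 58.5 CPM for the vessel growth factor Angpt1. AY036118 had 202, 1085 and 284 CPM, Mir5105 had 123, 629 and 172 CPM, and n-R5-8s1, a 5.8S ribosomal RNA row, had 7.18, 40.4 and 10 CPM. The mitochondrial leucyl-tRNA synthetase Lars2, a protein-coding gene, spread alike with 124, 599 and 186 CPM, as did the noncoding Gm15564 with 23.2, 123 and 36.9 CPM. In GENCODE M21 transcripts, 900 of the 900 different 24-base words of AY036118 also occur in CT010467.1, which the annotation calls rRNA, and Gm15564 and Lars2 share a stretch of 52 bases, which is 29 of the 3871 such words of the longest Lars2 transcript and 29 of the 379 of Gm15564. The first 30 bases of each shared stretch are printed because transcripts that share letters can take reads of the same molecule.
AY036118 and CT010467.1: atcaacgcaagcttatggcccgcacttact
Gm15564 and Lars2: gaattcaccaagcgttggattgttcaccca
Reads in such stretches cannot be assigned to 1 row by sequence, and how much of the level of Lars2 lay in its short shared stretch was not tested. The amount of ribosomal RNA left in each library was not tested. Gapdh, a gene with many processed copies, had 2.72, 3.46 and 1.6 CPM. Its reads may be lost to the copies, which was not tested.

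At the edge of the rule, Catsper2, Celsr3, Clec4a3, Col7a1 and Fabp5 were just inside with 1 CPM in library 2, and Brwd3, Casc1, Ccdc62, Chst10 and Dhx58 just outside with 0.99 CPM there.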

How the data were processed

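The labels describe DNase-treated total RNA and directional libraries. The submitters' processing notes name HTSeq 0.6.0, STAR 2.3.0, edgeR and build mm9 without saying what each did, and no annotation is named. The deposited table holds CPM, rounded by the authors to 2 decimals, and no depth is stated. Depth was read from the steps of non-zero values up to 1 CPM. Membership needed 1 CPM in 3 of 3 control libraries. Level per length is CPM over the union of exons in GENCODE M21 (GRCm38), matched by symbol for 10710 members and by synonym for 935. The planned second length was to come from a protein table, and the GENCODE coding union was used instead. Of 43 gene lists, some of whose genes occur in several lists, every one counts as written. The members and lists were chosen with earlier results of these data known. Named are the 20 highest genes per length, the 10 highest by CPM, up to 6 of the highest members of each list, list genes below 1 CPM in a library, all genes of 32 fixed pairs and of the nodal, connexin and HCN lists, the 15 widest, and 5 on each side of the threshold. A few genes that this rule names are not reported here, though they count in their lists. Gapdh and Hbb-b1 were named after their values were seen. A pair is ordered if both genes' ranges over 3 libraries are apart. No test was run, since an exact paired permutation test of 3 libraries cannot go below 0.25. Tools were Python 3.11.15, pandas 2.3.3, numpy 2.4.6 and matplotlib 3.10.9.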

Additional observations from a re-analysis of the deposited data

How the results depend on the processing

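The member count stayed within 1.5 times of 11767 under every threshold, scaling and left-out library tried, between 8790 at 5 CPM and 14509 above 0. It was 12283 without library 2, and members of the content lists then numbered 311 in place of 294. Without library 2 the ventricular list had 17 members, the valve and cartilage list 18 and the Schwann and glia list 20. The epicardial and mesothelial list then had 10, the MHC class II and dendritic list 12 and the collagens 35. The 10 and 100 highest genes took 11.1% and 27.6% of CPM without length. The median percentile over all genes of the content lists was 75.9 as reported, 71.6 by CPM without length, 69.2 per coding length and 81.6 among genes at 5 CPM, and it lay between 73.9 and 74.8 with each library left out. Members over 2-fold apart numbered 382 with a pseudocount of 2, 258 among genes at 5 CPM, and between 64 and 763 with each library left out, lowest without library 2. Of 32 pairs, 23 were ordered per exon length and 18 of these kept that order per coding length, the others being Myl7 with Myl2, Myl4 with Myl3, Nppa with Nppb, Cd163 with Ccr2 and Gjc1 with Gjd3. Per coding length 4 pairs with overlapping ranges became ordered: Hcn4 over Hcn2, Kcnj2 over Kcnj12, Tbx3 over Tbx2 and Col3a1 over Col1a1. The counts of list members over 2-fold apart without a library, and the counts after scaling by which library was highest, were added after the data were seen. The ratio of Myl7 to Myl2 was 0.875 by CPM without length, that of Myl4 to Myl3 was 1.20 per coding length and 1.23 by CPM, and that of Gjc1 to Gjd3 was 2.27 and 3.24 in the same order. No paired analysis was possible because the replicate numbers of the groups are not shared and no groups were compared.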
